A study of Mus musculus with 32 samples.

Results

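The 5 arrays labelled HRAS overexpression did not form a uniform group at a stretch of mouse chromosome 15 that holds Myc. They were chosen by their label and split by the measured log2 level of Lratd2, a gene near Myc, into arrays above 10 (replicates 1 and 2, n = 2) and arrays below 10 (replicates 3, 4 and 5, n = 3), out of 32 arrays in the series. The values nearest to the threshold were 10.67 inside (replicate 1) and 8.19 outside (replicate 5). The 2 sets were selected on these expression values, with Pvt1 and Myc as its other markers, so every difference between the 2 sets of arrays is given as a description, without a test. The members had been proposed as gliomas with and without gain of the Myc locus. Copy number was not measured here, and the 2 sets are named by their Lratd2 level.

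Each array measured total RNA of a neurosphere culture on an Affymetrix Mouse Gene 1.0 ST array, which covers each gene with probes along its transcript. Cells were taken from the wall of the lateral ventricle of postnatal mice without p53 (strain B6;129-Trp53tm1Brd), made to overexpress oncogenes, and transplanted into the brain. Cells of the resulting tumours that still expressed the fluorescently marked transgene were picked with a cell sorter and cultured as neurospheres, floating clusters kept in stem cell medium. HRAS is a small GTPase at the head of the MAP kinase cascade, and the tumours of the HRAS (n = 5) and HRAS+Bmi1 (n = 2) groups are labelled gliomas. Bmi1 is a subunit of a Polycomb repressive complex. Cells given MYC (n = 6) gave primitive neuroectodermal tumours, as did MYC+Bmi1 (n = 3) and MYC+Ezh2 (n = 5), and cells given HRAS and MYC together (HRAS+MYC, n = 7) gave tumours like atypical teratoid/rhabdoid tumours. In the consecutive groups MYC was added to cells of an HRAS tumour (HRAS then MYC, n = 2) or HRAS to cells of a MYC tumour (MYC then HRAS, n = 2), and the secondary tumours were cultured. All 8 groups lack p53, and none is a culture without an added oncogene. The labels do not say whether replicates came from separate tumours or animals, or which promoter drove the transgenes, so that the p-values speak of differences between arrays, whose spread may be technical.

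MYC is a transcription factor that pairs with MAX, binds the E-box CACGTG and raises genes of ribosome assembly, nucleotide synthesis and cell growth. Pvt1 is a long noncoding RNA next to Myc and a host of microRNAs. The Myc and Pvt1 region is a known site of amplification in tumours, brain tumours included, and of insertion by retroviruses in mice. Myc is also an early target of RAS and MAP kinase signalling, which both raises its transcription and stabilises its protein.

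The added Hras was not measured by a probe set with a symbol of its own, so the HRAS labels could not be checked on it. All 5 HRAS arrays had high levels of the filament genes Vim (13.56 to 13.86) and Nes (9.58 to 10.62). The stem cell marker Prom1 was dim (4.81 to 5.36). Astrocyte genes were also mixed, with Gfap at 4.92 to 5.21 but Gja1 at 10.34 to 11.16 and Aldoc at 9.33 to 10.82. No cell type is read from these levels. Over the 19938 genes, replicates 1 and 2 were the most alike of the 10 pairs of HRAS arrays, with a Pearson correlation across genes of 0.988 and 367 genes apart by 1 log2 unit or more. The other 9 pairs correlated at 0.961 to 0.977, with 903 to 1737 genes that far apart. Replicate 3 stood apart from the other 4 arrays, with correlations of 0.961 to 0.970 and raised neural genes: Map2 was 9.99 in it against 5.20 to 6.18 in the others, and Olig2, a factor of the oligodendrocyte lineage, 8.94 against 4.37 to 6.51. Counts are therefore also given without replicate 3.

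A gene is called separate here when both arrays with Lratd2 above 10 lay on the same side of all the arrays below 10. Of all 19938 genes 13.3% were separate and higher and 9.83% separate and lower, and these shares were 21.8% and 18.4% without replicate 3, when only 2 arrays remain on each side. Genes that were separate with means at least 1 log2 unit apart were far fewer, 0.838% higher (167 genes) and 0.823% lower (164 genes). The rule used this contrast, so no count in it is read as support for anything.

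Within the Myc neighbourhood a run of genes from Lratd2 to Pvt1 was high in replicates 1 and 2. Lratd2, which encodes a protein with an LRAT domain, had log2 levels of 10.67 and 12.55 in replicates 1 and 2 and of 6.92, 7.45 and 8.19 in replicates 3, 4 and 5. The means differed by 4.09, or 17.1-fold. In RNA of a whole culture, more cells with the transcript and more of it per cell cannot be told apart. Its other probe set gave 10.22 and 11.60 against 6.22, 6.72 and 7.12, the same division of the arrays.

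The neighbour of Lratd2, the unnamed gene model 9930014A18Rik, followed it at 7.64 and 9.08 against 4.67, 4.94 and 4.90, a difference of 3.53 (11.5-fold). Pvt1 was 10.62 and 11.84 against 8.07, 7.88 and 8.27, a difference of 3.15 (8.90-fold). Its other probe set was dim in all 5 arrays, at 2.34 to 2.51, and carried no such difference, so that the mean of the 2 probe sets differed by 1.62. Myc itself was 11.88 and 12.85 against 10.92, 10.44 and 10.71, a difference of 1.68 (3.20-fold). Replicate 2 was the higher of the 2 arrays in all 4 genes, by between 0.97 and 1.89 log2 units, and in none of the 4 did the 2 sets of arrays overlap. The 3 arrays with Lratd2 below 10 lay close together in 9930014A18Rik, Pvt1 and Myc, with SDs of 0.15, 0.19 and 0.24, and less so in Lratd2 (0.64).

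A1bg, the measured gene between 9930014A18Rik and Myc, did not share the pattern. It was near the floor of the arrays in every replicate, at 4.205 and 4.44 against 4.07, 4.26 and 3.96.

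Beyond this run no measured gene within 10 positions of Myc differed by 1 or more. The genes next to the run were dim on both sides, where a change would be understated, so its edges are not resolved. On the Lratd2 side 4933412E24Rik, dim at 4.36 to 4.96, differed by 0.12. The next gene was Trib1, a pseudokinase that acts on MAP kinase signalling and is often gained together with MYC in tumours. It was well expressed, at 8.39 and 9.03 against 9.09, 8.40 and 8.05, with the 2 sets overlapping. On the Pvt1 side Macroh2a3 differed by 0.29 and the gasdermin genes Gsdmc, Gsdmc2 and Gsdmc4 by 0.11, 0.26 and −0.03, all dim genes. Cyrib, a regulator of RAC1 that is well expressed in these cells, was 9.76 and 9.91 against 9.76, 9.79 and 9.60. Of the 20 measured genes within 10 positions of Myc, 4 were separate and higher, against 13.3% of all genes. A further 3 were separate and lower, against 9.83%, and 13 overlapped. Lratd2, 9930014A18Rik and Pvt1 were the 3 that differed by 1 or more. The other 17 lay between −0.57 (Mtss1) and 0.50 (Adcy8, an adenylyl cyclase), and the median of the 20 was 0.13 against 0.04 over all genes.

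**Figure D1:**
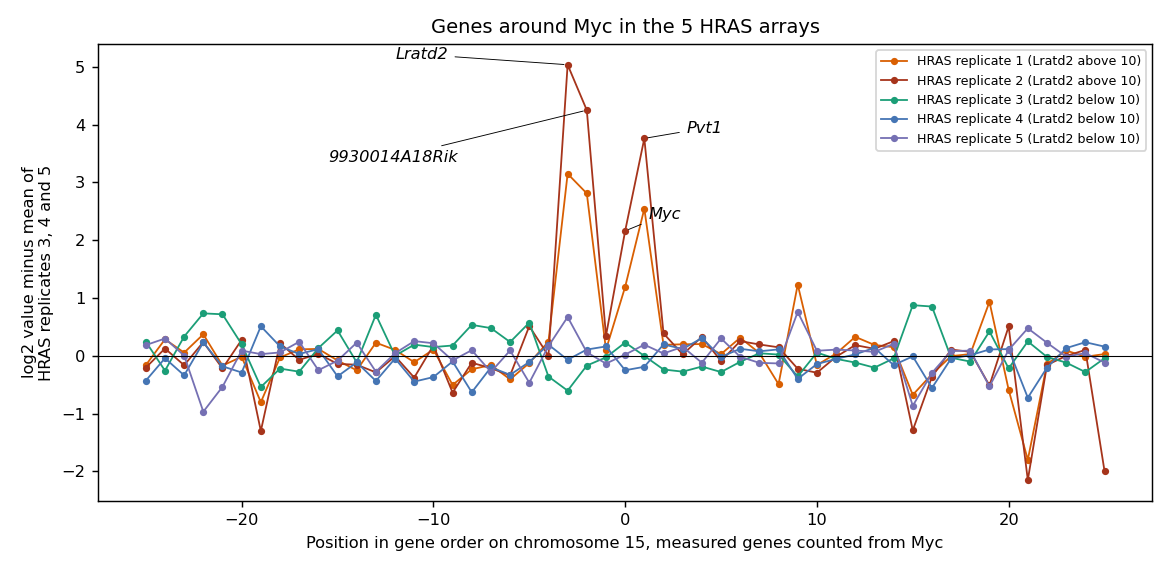
Log2 level of each gene minus its mean in HRAS replicates 3, 4 and 5 (vertical axis), against the position of the gene among the measured genes of chromosome 15, counted from Myc (horizontal axis); each line joins the points of 1 array. Replicates 1 and 2 lie above the other 3 arrays at Lratd2, 9930014A18Rik, Myc and Pvt1. They drop to the level of the others at A1bg between these genes, and return to it at the genes next to the run. Farther out both lie below the others at Fbxo32 (−0.80 and −1.30) and St3gal1 (−1.80 and −2.15), and replicate 2 does so at Khdrbs3 (−1.99). A1bg and the genes next to the run are dim.

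The 5 adjacent measured genes from Lratd2 to Pvt1 had a median difference of 3.15, which is Pvt1's own value. The run holds the gene of the split and both other markers, so its size follows from the choice of arrays and is not ranked against other runs. Among runs of 5 that hold none of these genes the highest median was 1.21, from Ifitm2 to B4galnt4 on chromosome 7.

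The levels of the same genes in the 27 arrays of other groups, which the split did not use, placed the HRAS values in the series. No other array reached the Lratd2 level of replicates 1 and 2, the highest being 9.52. The order of group means ran from HRAS+MYC (9.13 ± 0.21, SD, n = 7) and MYC then HRAS (8.99 and 9.24) through HRAS+Bmi1 (7.70 and 8.09), MYC (7.44 ± 0.70, n = 6), HRAS then MYC (7.31 and 7.05) and MYC+Ezh2 (7.10 ± 0.51, n = 5) to MYC+Bmi1 (6.84 ± 0.55, n = 3). HRAS+MYC and MYC then HRAS overlapped each other, as did the 4 groups from MYC to MYC+Bmi1, whereas all 7 HRAS+MYC arrays lay above every HRAS+Bmi1 and MYC array. HRAS replicates 3, 4 and 5 fell within the range of the MYC arrays, 6.76 to 8.51.

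9930014A18Rik was low in every other group, at 4.58 to 6.19 over the 27 arrays, below both replicate 1 (7.64) and replicate 2 (9.08). Pvt1 was highest outside the HRAS group in HRAS+Bmi1 (8.19 and 8.99) and ran from 7.15 to 7.71 in HRAS+MYC, 7.56 to 8.10 in MYC, 7.25 to 8.10 in MYC+Bmi1 and 7.07 to 7.90 in MYC+Ezh2 arrays. Replicates 1 and 2 thus lay above every other array in Lratd2, 9930014A18Rik and Pvt1.

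Mouse Myc showed another order. It was high in all 5 HRAS arrays and in HRAS+Bmi1 (10.38 and 10.87), and low wherever MYC had been added, with 7.24 to 7.96 in HRAS+MYC, 6.12 to 8.23 in MYC, 6.43 to 7.41 in MYC+Ezh2 and 6.30 to 6.68 in MYC+Bmi1 arrays. It was 8.25 and 7.49 in HRAS then MYC and 7.46 and 7.76 in MYC then HRAS arrays. The labels do not give the species of the added MYC, so the mouse probe set does not check those labels. The 3 HRAS arrays with Lratd2 below 10 overlapped the HRAS+Bmi1 arrays in Myc, and replicates 1 and 2 lay above all of them.

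**Figure D2:**
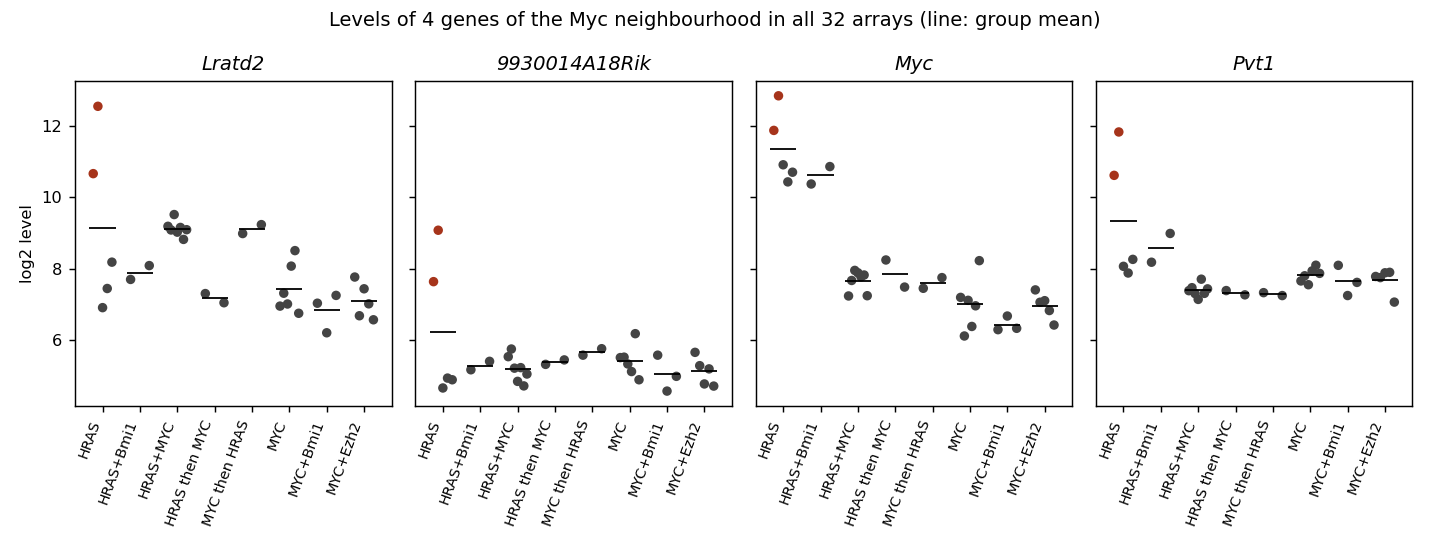
Log2 level (vertical axis) of Lratd2, 9930014A18Rik, Myc and Pvt1 in all 32 arrays by group (horizontal axis); each point is 1 array, the line is the group mean, and red points are HRAS replicates 1 and 2. The red points are the highest in each panel, and the other 3 HRAS arrays lie among those of other groups except in Myc, where all HRAS and HRAS+Bmi1 arrays are above 10 and all others below 8.3.

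The whole HRAS group was compared with its relatives in limma, fitted over all 8 groups. All of these comparisons share the HRAS arrays. The arrays were singled out by their values of Lratd2, with Pvt1 and Myc as markers. The limma p-values of these 3 genes therefore describe the labelled groups and are not read as support. Differences without replicates 1 and 2 are given beside them as descriptions, with no test, since these arrays were picked for their high Lratd2 and leaving them out lowers the HRAS mean of Lratd2, and of the markers Pvt1 and Myc, by construction. Between HRAS (n = 5) and MYC (n = 6) arrays 33.4% of all genes passed at an adjusted p under 0.05 (15.4% with more RNA in HRAS and 18% with less). Myc was higher in HRAS by 4.35 ± 0.34 (SE, limma adjusted p 7.18e-11), and the difference was 3.68 without replicates 1 and 2. Pvt1 was higher by 1.51 ± 0.44 (limma adjusted p 0.00843), with a difference of 0.25 without these arrays. Lratd2 was higher by 1.72 ± 0.61 (limma adjusted p 0.0296), with a difference of 0.08 without them. The fit assumes 1 spread for all groups, but the SD of Lratd2 was 2.38 in HRAS and 0.70 in MYC arrays. The Lratd2 call was lost without replicate 1 alone (1.34, limma adjusted p 0.111), without replicate 2 alone (0.87, limma adjusted p 0.161) or without MYC replicate 1, 3 or 6 (limma adjusted p 0.0542 to 0.0588). 9930014A18Rik did not pass with all arrays (0.81 ± 0.51, limma adjusted p 0.247), and was at −0.60 without replicates 1 and 2.

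Of the 20 genes around Myc 6 passed higher and 1 lower in HRAS than in MYC arrays. Besides Lratd2 and Pvt1 these were Trib1 (1.08 ± 0.24, limma adjusted p 0.000786), the ARF-directed regulator Asap1 (0.79, limma adjusted p 0.000603), Efr3a, a membrane anchor of a lipid kinase (0.75, limma adjusted p 0.0014), and the dim gasdermin Gsdmc4 (0.27, limma adjusted p 0.0416). Sqle, an enzyme of cholesterol synthesis, was the lower gene (−0.66, limma adjusted p 0.0191).

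Against HRAS+MYC arrays (n = 7), where 24.7% of all genes passed (11.7% up and 13% down in HRAS+MYC, or 3206 higher and 2113 lower in place of 2325 and 2596 with arrays centred on their medians), Myc fell by 3.70 ± 0.33 with added MYC (limma adjusted p 3.77e-09) and Pvt1 by 1.94 ± 0.43 (limma adjusted p 0.00122). Without replicates 1 and 2 these differences were −3.03 and −0.68. The Lratd2 difference was −0.02 ± 0.59 with all HRAS arrays (limma adjusted p 0.983), and 1.61 without replicates 1 and 2. 9930014A18Rik did not pass (−1.05 ± 0.49, limma adjusted p 0.128, and a difference of 0.36 without these arrays), though it passed without HRAS replicate 3 or 5 (limma adjusted p 0.0345 and 0.0494). Of the 20 genes around Myc 4 fell in HRAS+MYC and none rose. Besides Pvt1 these were Mtss1, a membrane-bending protein (−1.07, limma adjusted p 0.000953), Asap1 (−0.89, limma adjusted p 0.000199) and Adcy8 (−1.03, limma adjusted p 0.0346).

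Against HRAS+Bmi1 arrays (n = 2), where 5.91% of all genes passed (2.87% up and 3.04% down in HRAS+Bmi1, or 425 and 791 genes in place of 572 and 606 with centred arrays), none of the 4 genes passed. The difference was −0.73 ± 0.47 for Myc (limma adjusted p 0.458) and −0.75 for Pvt1 (limma adjusted p 0.614), and −0.07 and 0.52 without replicates 1 and 2. For Lratd2 it was −1.26 (limma adjusted p 0.493), and 0.38 without them, and for 9930014A18Rik −0.95 (limma adjusted p 0.554), and 0.46 without them. Of the 20 genes around Myc 1 rose in HRAS+Bmi1, Washc5 (0.96, limma adjusted p 0.0396), a gene for which HRAS replicate 3 (10.46) was far from the remaining 4 arrays (9.70 to 9.82).

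In HRAS then MYC arrays (n = 2), where 12.5% of all genes passed (6.3% up and 6.21% down, or 2467 and 904 genes in place of 1256 and 1239 with centred arrays), Myc fell by 3.49 ± 0.47 (limma adjusted p 1.49e-05) and Pvt1 by 2.00 ± 0.61 (limma adjusted p 0.0294). Without replicates 1 and 2 the differences were −2.82 for Myc and −0.74 for Pvt1. The Pvt1 call was lost without HRAS replicate 1 (limma adjusted p 0.0694) or either HRAS then MYC array (limma adjusted p 0.156 and 0.231). Lratd2 was −1.98 ± 0.84 and did not pass (limma adjusted p 0.135), but passed without HRAS replicate 3 (−2.54, limma adjusted p 0.0295). 9930014A18Rik did not pass (−0.86, limma adjusted p 0.525), and Pvt1 was the sole gene of the 20 around Myc that did.

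Whether Pvt1 and Myc varied with Lratd2 was also examined in the 2 larger groups that the split did not use, over 4 relations, each with a 2-sided exact permutation test. In the MYC arrays (n = 6) Pearson's r with Lratd2 was 0.78 for Pvt1 (exact permutation p 0.0667, adjusted 0.267) and −0.51 for Myc (exact permutation p 0.25, adjusted 0.5), with Spearman's rho of 0.60 and −0.77 (exact permutation p 0.242 and 0.103). The value for Pvt1 rests on 2 arrays: over the 4 arrays left without the 2 farthest from the median of Lratd2, r was −0.11 for Pvt1 and −0.99 for Myc. In the HRAS+MYC arrays (n = 7), where Lratd2 ran only from 8.83 to 9.52, r was 0.09 for both Pvt1 (exact permutation p 0.814) and Myc (exact permutation p 0.901), with rho of 0.14 and −0.11 (exact permutation p 0.782 and 0.84). Over the 5 arrays left in the same way r was 0.63 for Pvt1 and −0.52 for Myc. None of the 4 relations passed.

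Genes that MYC is known to raise were next compared between the 2 sets of HRAS arrays. Of 27 measured genes of the ribosome biogenesis list 26 had the higher mean in replicates 1 and 2, and 12 were separate and higher and none separate and lower. Of all 19938 genes 11198 had the higher mean in these arrays, 13.3% were separate and higher and 9.83% separate and lower. The median difference of the list was 0.55 against 0.04 over all genes. Without replicate 3 there were 26 separate and higher, with a median of 0.69, where 21.8% of all genes were separate and higher. Dkc1, which encodes the pseudouridine synthase dyskerin, was 10.10 and 10.29 against 9.998, 8.68 and 8.99, a difference of 0.97. Rrp9, a component of the small-subunit processome, was 9.42 and 9.77 against 8.80, 8.46 and 8.83, and Polr1b, a subunit of RNA polymerase I, 9.90 and 10.23 against 9.77, 8.59 and 9.35. Replicate 4 was the lowest array in all 3 of these genes, and in Dkc1 and Polr1b replicate 3 came close to replicates 1 and 2. Npm1, the nucleolar chaperone, was the member with the lower mean (11.32 and 11.65 against 11.83, 11.40 and 11.63).

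Genes of nucleotide, one-carbon and polyamine synthesis were also mostly higher in replicates 1 and 2. Of 23 measured, 7 were separate and higher and 1 separate and lower, against 13.3% and 9.83% of all genes. The median of the list was 0.46. Without replicate 3 there were 18 higher and 1 lower, with a median of 0.78, against 21.8% and 18.4% of all genes. Mthfd1, a folate enzyme, was 10.23 and 10.38 against 9.65, 8.85 and 8.81 (difference 1.199). Srm, the spermidine synthase, was 10.31 and 10.99 against 9.99, 9.03 and 9.63 (1.10), and Cad, which starts pyrimidine synthesis, 9.27 and 9.60 against 8.95, 8.18 and 8.48 (0.90). The serine enzyme Psat1 was the gene that was separate and lower, by 0.44. Odc1, a classical target of MYC in the same polyamine path as Srm, overlapped, at 11.87 and 12.05 against 11.76, 11.59 and 11.94.

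Set against the whole series, these lists were low in all 5 HRAS arrays. The median ribosome biogenesis gene lay −0.51 and −0.29 log2 units from its mean over all 32 arrays in replicates 1 and 2, and −0.50, −1.21 and −0.95 in replicates 3, 4 and 5. It lay −0.19 and −0.14 from it in the HRAS+Bmi1 arrays, between 0.00 and 0.30 in HRAS+MYC and between −0.43 and 0.60 in MYC arrays. Replicate 3, with Lratd2 below 10, was thus level with replicate 1, and replicates 4 and 5 were the lowest arrays. No HRAS array lay above any HRAS+Bmi1 or HRAS+MYC array in this list. The nucleotide list lay at −0.53 and −0.325 in replicates 1 and 2. In replicates 3, 4 and 5 it lay at −0.46, −1.37 and −1.11, so that replicate 3 fell between replicates 1 and 2. In limma, with all 5 HRAS arrays, 26 of the 27 ribosome biogenesis genes were lower in HRAS than in MYC arrays (median difference −0.86) and 27 of 27 rose in HRAS+MYC (median 0.88). In HRAS then MYC arrays 14 rose (median 0.67), and 2 in HRAS+Bmi1 arrays (median 0.54). For nucleotide, one-carbon and polyamine synthesis 18 of 23 were lower in HRAS than in MYC, 18 rose in HRAS+MYC, 15 in HRAS then MYC and 2 in HRAS+Bmi1 arrays, and none passed in the opposite direction.

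**Figure D3:**
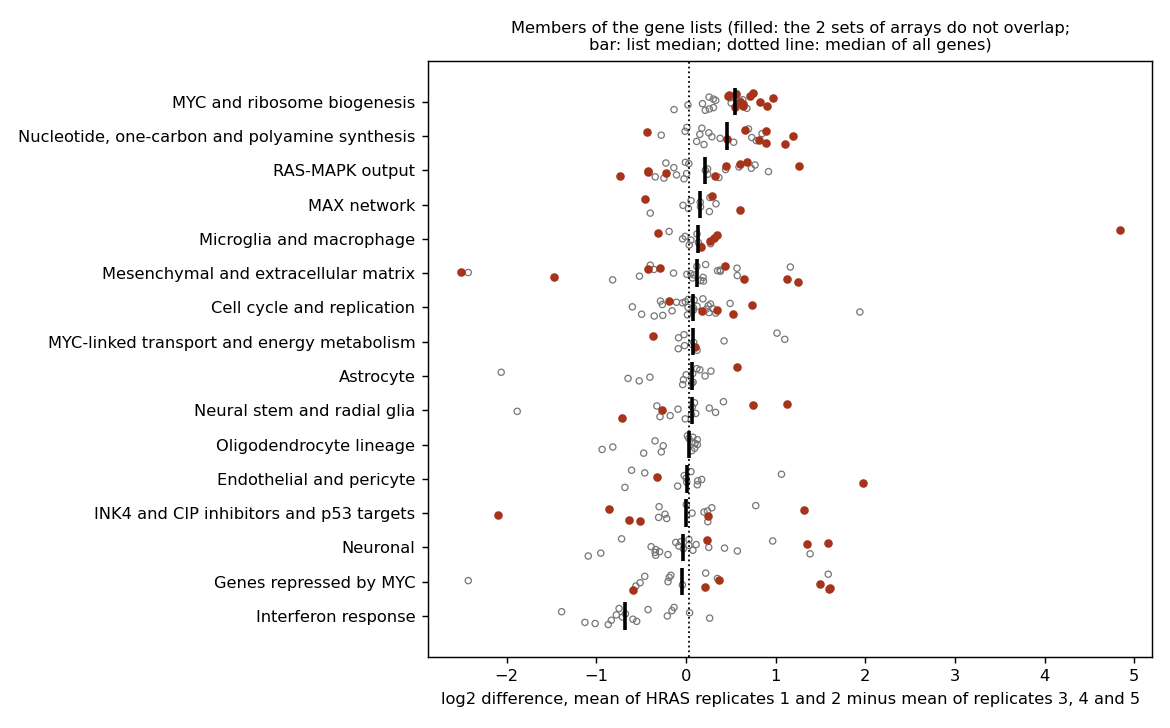
Difference of means in log2 units, HRAS replicates 1 and 2 minus replicates 3, 4 and 5 (horizontal axis), for each measured member of 16 gene lists (rows); filled points are genes whose 2 sets of arrays do not overlap, bars are list medians and the dotted line is the median of all genes (0.04). The ribosome biogenesis and nucleotide lists have the highest medians, 0.55 and 0.46, and the interferon list the lowest, −0.68.

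The E-box that MYC and MAX bind was looked for in the promoters of these 2 lists, from 250 bases before to 50 after the start of each gene in RefSeq (GRCm38.p6). The motif searched was CACGTG, which reads the same on both strands, and 43 of the 50 measured genes had a promoter in the table used. It was present in 10 of the 43 (23.3%), in 4 of the 17 that were separate and higher (23.5%) and in 6 of the other 26 (23.1%), against 9.5% of the 15614 promoters of all measured genes and 8.09% of all 27025 promoters in the table. The share was thus alike in the genes that were separate and in those that were not. A match is a description of these letters, not a site of binding. The sites of the 4 genes that were separate and higher are printed as examples of the motif. They are given with 12 bases on either side and the motif in capitals, on the strand of the gene. A link between the motif and the levels was not tested. The motif begins at −7 in Atic (chr1:71557137-71557166), a purine enzyme, and at −60 in Nop2 (chr6:125131811-125131840), a ribosomal RNA methyltransferase, counted from the start of the gene. It begins at 24 in Nle1 (chr11:82908355-82908384, minus strand) and at 18 in Wdr43 (chr17:71616220-71616249), both assembly factors of the ribosome.
Atic: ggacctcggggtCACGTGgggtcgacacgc
Nop2: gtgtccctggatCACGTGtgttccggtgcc
Nle1: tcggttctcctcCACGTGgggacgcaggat
Wdr43: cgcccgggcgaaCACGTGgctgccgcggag
Atic levels were 11 and 11.07 against 10.73, 10.64 and 10.36, and Nop2 levels 10.06 and 10.21 against 9.74, 9.49 and 9.52. Nle1 was 7.61 and 7.97 against 7.46, 6.72 and 7.05, and Wdr43 10.66 and 10.90 against 10.48, 9.91 and 10.07. In all 4 the lowest array was replicate 4 or 5.

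Counts in the MAX network and in transport and energy genes linked to MYC lay near the shares over all genes. These shares were 13.3% separate and higher and 9.83% separate and lower, and nothing is read from the counts. In the MAX network, MYC's partners and rivals, 2 of 12 were separate and higher and 1 lower (median 0.16). Max, the obligate partner, was 9.60 and 10.08 against 9.503, 8.89 and 9.31, and Mycn, a paralog of Myc, overlapped at 5.84 and 5.94 against 7.22, 5.88 and 5.77. Of 12 transport and energy genes linked to MYC, 1 was separate and higher and 1 lower, with a median of 0.07, and Ldha, a lactate dehydrogenase, stood at 12.72 and 13.11 against 12.82, 12.80 and 12.74.

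Among 17 genes known to be repressed by MYC 5 were separate and higher and 1 lower, against 13.3% and 9.83% of all genes. The median of this list was −0.04. Cdkn2b, which encodes the cell cycle inhibitor p15, was 11.02 and 11.31 against 9.61, 9.40 and 9.64, a difference of 1.61 (3.05-fold). Cdkn1c, which encodes the inhibitor p57, was 9.13 and 8.81 against 6.43, 7.97 and 7.74 (1.59), and Ndrg2 8.97 and 9.55 against 8.04, 6.82 and 8.46 (1.49). These 3 genes of the list were thus higher in replicates 1 and 2. The separate and lower gene was Cdkn1b, which encodes the inhibitor p27, at 8.74 and 8.81 against 9.45, 9.335 and 9.30 (−0.59). Thbs1 had the largest difference of the list, −2.43, but overlapped. Cdkn2a, next to Cdkn2b in the genome and the source of p16 and p19ARF, overlapped, at 10.81 and 11.10 against 10.43, 10.55 and 11.16.

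Of 31 cell cycle and replication genes 4 were separate and higher and 1 lower (median 0.08), against 13.3% and 9.83% of all genes. Without replicate 3 these counts were 15 and 1 (median 0.24), against 21.8% and 18.4% of all genes. The replication helicase subunit Mcm4 differed by 0.74, cyclin E1 (Ccne1) by 0.52 and Cdk4 by 0.35. Mki67, a marker of dividing cells, overlapped, at 8.86 and 9.01 against 9.93, 9.13 and 8.82. Of 17 cell cycle inhibitors and p53 targets 2 were separate and higher and 4 lower (median 0.00), against 13.3% and 9.83% of all genes. Pmaip1, which encodes the death-promoting protein NOXA, was 6.63 and 6.35 against 8.26, 9.40 and 8.12, or 4.29-fold lower. Phlda3 was lower by 0.86, and the desmosome protein Perp higher by 1.31. All these cells lack p53.

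RAS and MAP kinase output was high in all 5 arrays. Its median gene lay 1.17 and 1.31 above its mean over the series in replicates 1 and 2, and 0.83, 1.04 and 1.07 above it in replicates 3, 4 and 5, against −1.86 to −0.78 in MYC arrays. Of 27 measured members 5 were separate and higher and 4 lower, against 13.3% and 9.83% of all genes. The median difference of the list was 0.22, and 0.01 without replicate 3. Plau, the urokinase, was 12.99 and 12.45 against 10.97, 11.89 and 11.52 (1.26), and the cytokine Lif was higher by 0.68. Spry1, an inhibitor of the pathway, was lower by 0.73. The AP-1 factor Fosl1 was separate and lower by a gap of only 0.007, at 9.725 and 9.857 against 10.164, 10 and 9.864. The phosphatase Dusp6 overlapped, at 11.77 and 11.30 against 11.90, 10.25 and 11.36.

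The counts of separate lineage markers lay near or below the shares over all genes, 13.3% higher and 9.83% lower, and nothing is read from them. In the neural stem list 2 of 17 were separate and higher and 2 lower. Id3 and Id1, inhibitors of differentiation induced by BMP signals, were higher by 1.12 and 0.75, and Sox2 was lower by 0.72 (10.76 and 10.84 against 10.87, 11.75 and 11.92). Of 15 astrocyte genes 1 was separate, the neurotensin receptor Ntsr2 (0.57), and of 15 oligodendrocyte genes none was, although 4 were higher and 3 lower without replicate 3. Of 25 neuronal genes 3 were separate and higher. Dlx2, a homeobox factor of interneuron precursors, was 7.86 and 8.37 against 5.94, 6.84 and 6.83 (1.58), and its neighbour Dlx1 7.12 and 7.51 against 6.10, 5.58 and 6.22 (1.35). Both Dlx genes had replicates 1 and 2 highest.

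In the mesenchymal and matrix list 4 of 29 were separate and higher and 4 lower. Thbs2, a matrix glycoprotein that restrains vessels, was 9.13 and 9.28 against 9.95, 12.76 and 12.44, or 5.70-fold lower. Col6a1 was lower by 1.47 and fibronectin (Fn1) higher by 1.25. Of 14 endothelial and pericyte genes 1 was separate and higher and 1 separate and lower. Flt1, a receptor for vascular growth factor, was higher, at 8.32 and 9.06 against 7.24, 6.34 and 6.57 (1.97). It was higher still in the HRAS+Bmi1 arrays, at 9.54 and 9.57. The endothelial gene Emcn, dim in all 5 HRAS arrays, was lower by a gap of only 0.012, at 3.77 and 3.53 against 4.315, 3.79 and 3.83. The endothelial markers Cdh5 (4.69 to 5.16) and Kdr (4.89 to 5.73) were dim in all 5 arrays.

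The interferon response had the lowest median of all lists, −0.68, yet none of its 17 measured genes was separate. The list differed within both sets of arrays. Ifit1 was 8.65 in replicate 1 and 5.70 in replicate 2, against 8.20, 9.23 and 6.69, and Irf7, a factor that drives the response, 8.63 and 5.70 against 7.70, 9.28 and 6.16. Replicates 2 and 5 were the low arrays and replicates 1, 3 and 4 the high ones, a division that cuts across the Lratd2 level.

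The gene with the largest gap between the 2 sets lay outside the Myc neighbourhood. Laptm5, a lysosomal membrane protein known from blood cells, was 10.50 and 10.04 against 4.73, 5.08 and 6.50, a difference of 4.83 or 28.5-fold. In the other 27 arrays it was at most 7.66. Laptm5 belongs to the microglia and macrophage list, of which 5 of 15 were separate and higher and 1 lower, against 13.3% and 9.83% of all genes. The list median was 0.14. Apart from Laptm5 the separate and higher genes were Aif1, Ptprc, C1qa and C1qc, all dim and with gaps of only 0.01 to 0.11, so nothing is read from the count. The defining markers of these cells were dim in all 5 arrays: Aif1 stood at 4.14 to 4.42, Csf1r at 4.18 to 4.83, Ptprc, the leukocyte antigen CD45, at 4.27 to 4.83, and Cx3cr1 at 5.47 to 5.79. Cd68 was the other bright member, at 8.58 and 9.68 against 6.86, 9.22 and 11.21, and overlapped.

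A further set of genes with large gaps belongs to epithelia. Krt18, a keratin of simple epithelia, was 10.57 and 11.40 against 6.10, 6.09 and 8.43 (17.3-fold). Its partner Krt8, named after its values were seen, was 7.02 and 7.62 against 6.06, 6.61 and 6.26, a difference of 1.01. The tight junction protein Cldn6 was 7.67 and 10.47 against 4.90, 5.31 and 5.15 (15.4-fold), and Cldn9, also named after its values were seen, 7.51 and 10.33 against 5.59, 6.17 and 5.76. F11r, a junction adhesion molecule, was 8.13 and 8.75 against 5.85, 5.48 and 6.13. In the 2 claudins replicate 2 exceeded replicate 1 by over 2 log2 units, and replicate 5 was the highest of the other 3 in Krt18.

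Several of these genes were also high in 2 of the 3 groups with both added oncogenes, HRAS+MYC and MYC then HRAS, and low in the other, HRAS then MYC. Krt18 ran from 11.04 to 11.996 in HRAS+MYC (n = 7) and was 11.81 and 11.98 in MYC then HRAS, but from 5.20 to 5.88 in MYC and 6.08 and 6.22 in HRAS+Bmi1 arrays. In HRAS then MYC arrays Krt18 was between 6.25 and 7.80, Cldn6 between 5.15 and 5.16, F11r between 4.64 and 5.53, Ifitm1 between 5.88 and 6.33 and Ripk3 between 5.27 and 5.89. Cldn6 ran from 8.11 to 11.30 in HRAS+MYC and from 5.01 to 5.42 in MYC arrays, and F11r from 9.24 to 9.97 and from 4.66 to 5.55. The interferon-induced membrane protein Ifitm1 was 8.65 and 9.14 against 5.51, 5.98 and 6.47, and 8.70 to 10.72 in HRAS+MYC. Ripk3, a kinase of necroptosis, was 8.56 and 8.88 against 5.99, 5.66 and 5.47, and 7.73 to 10.71 in HRAS+MYC. The levels of Ripk3 and Cldn6 in HRAS replicates 1 and 2 lay near or within those of HRAS+MYC arrays. In replicates 3, 4 and 5 they lay near those of MYC and of HRAS then MYC arrays. F11r lay below all HRAS+MYC arrays in both replicates 1 and 2, and Krt18 and Ifitm1 did so in replicate 1. Krt8 did not follow, at 10.66 to 12.41 in HRAS+MYC, well above replicates 1 and 2.

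Other genes with large gaps were not high in HRAS+MYC arrays. Grp, the gastrin-releasing peptide, was 6.67 and 7.45 against 4.06, 4.39 and 4.30, and 4.25 to 5.39 in HRAS+MYC. Acss3, an enzyme that activates short fatty acids, was 8.15 and 7.50 against 4.88, 5.52 and 5.24, and 4.76 to 5.63 in HRAS+MYC, but 7.74 and 7.84 in the HRAS+Bmi1 arrays. Acss3 was thus at a like level in the HRAS arrays with high Lratd2 and in the HRAS+Bmi1 arrays.

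**Figure D4:**
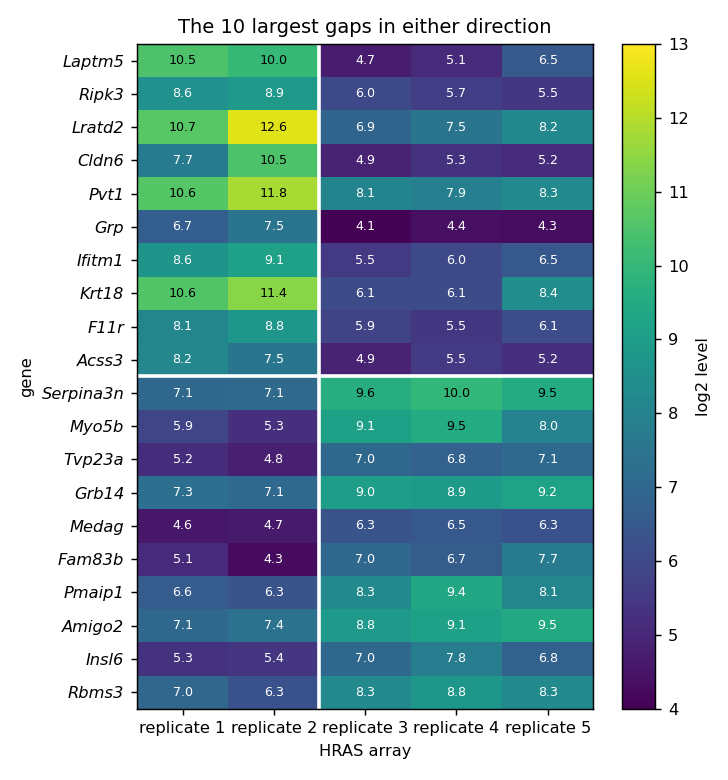
Log2 level (colour scale and printed values) of the 10 genes with the largest gap upward and the 10 with the largest gap downward (rows) in the 5 HRAS arrays (columns); the white lines divide the 2 sets of arrays and the 2 directions. Laptm5 is at 10.50 and 10.04 in replicates 1 and 2 and at 4.73 to 6.50 in the others, and Serpina3n is at 7.06 and 7.12 against 9.54 to 9.96.

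In the opposite direction, Serpina3n, a secreted protease inhibitor of reactive glia, was 7.06 and 7.12 against 9.59, 9.96 and 9.54, or 6.11-fold lower. It was 6.76 and 7.06 in HRAS+Bmi1 and 3.98 to 5.12 in HRAS+MYC arrays, so that all 5 HRAS arrays lay above HRAS+MYC. Myo5b, a motor of recycling vesicles, was 5.90 and 5.26 against 9.11, 9.54 and 7.98, or 9.82-fold lower. In the other 27 arrays Myo5b ran from 4.60 to 5.96, so the arrays that stood apart in the series were replicates 3, 4 and 5. Grb14, an adaptor that restrains receptor tyrosine kinases, was 7.30 and 7.08 against 9.01, 8.91 and 9.23. The other genes of the 10 with the largest gap downward, besides Pmaip1, differed by −2.41 (Fam83b) to −1.74 (Medag).

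X-linked genes were outside the rule for names and are given because of their size. Slc7a3, a transporter of cationic amino acids, was 6.07 and 5.35 against 9.33, 9.54 and 9.99, or 15.03-fold lower, and Fndc3c1 was 4.39 and 3.83 against 7.44, 8.31 and 8.73, or 16.6-fold lower. Both varied widely inside other groups, Slc7a3 from 5.14 to 9.98 and Fndc3c1 from 3.53 to 10.65 in MYC arrays. Xist, which marks an inactive X, was dim in all 5 HRAS arrays, at 4.331 and 4.473 against 4.024, 3.864 and 4.319, separate and higher by a gap of 0.012. The Y-linked Eif2s3y was present in all 5 (7.80 to 8.65) and overlapped.

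Median differences over the genes of whole chromosomes lay between −0.17 and 0.12 log2 units. The median difference over the 752 measured genes of chromosome 15 was 0.06 log2 units against 0.04 over all genes, and 10.9% of them were separate and higher and 7.58% separate and lower. The largest chromosome medians were on chromosome 18, at −0.17 (24.6% of 472 genes separate and lower), and on chromosome 16, at 0.12 (23.4% of 649 genes separate and higher). Without replicate 3 these medians were −0.07 and 0.06, and that of chromosome 18 ran from −0.24 to −0.07 when each array was left out in turn. On chromosome 18 replicate 3 was high (0.25 above the mean of the 5 arrays) and replicate 2 low (−0.16), while replicates 1, 4 and 5 lay at −0.05, −0.01 and −0.02. On chromosome 16 replicates 1 and 2 were at 0.07 and 0.07 and replicate 3 was low, at −0.14. On chromosome 3, with a median of −0.09, 23.1% of 945 genes were separate and lower, with replicates 1 and 2 at −0.06 and −0.07 and replicate 4 highest at 0.08. Chromosome 8 had a median of −0.08, with 19.5% of 961 genes separate and lower.

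**Figure D5:**
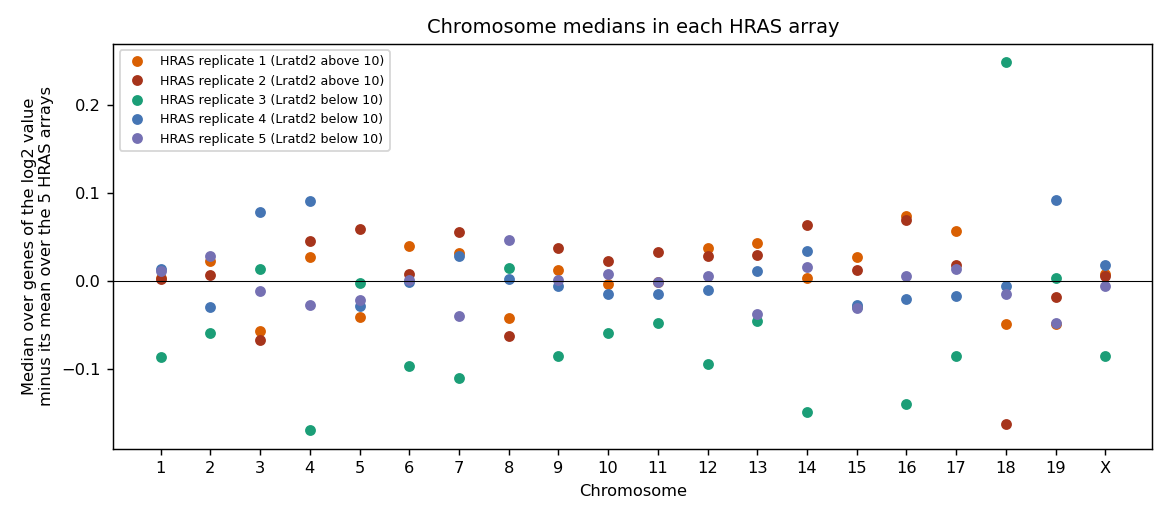
Median over the genes of each chromosome (horizontal axis) of the log2 level minus the gene's mean over the 5 HRAS arrays (vertical axis); each point is 1 array. The points of chromosome 15 lie within 0.04 of 0, and the widest spread is on chromosome 18, from −0.16 in replicate 2 to 0.25 in replicate 3.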

How the data were processed

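RNA of 32 neurosphere cultures was hybridised to Affymetrix Mouse Gene 1.0 ST arrays. The deposited values are log2 levels per probe set, which per the submitters' processing notes came from RMA in Affymetrix Expression Console 1.0. RMA normalizes all arrays to the same distribution, so a general change in RNA amount is not seen, and dim probe sets understate changes. For genome build and scan batches, the sources used here give nothing, and the number of arrays limits the precision. Values ran from 1.44 to 14.5, with array medians of 5.59 to 5.79.

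The platform annotation named a single gene for 21789 of 35557 probe sets, several for 1621 and listed none for 12147. Those with a single gene were used, and 21698 of them (99.58%) matched RefSeq GRCm38.p6, which gave gene order and promoters. For the 999 genes with several probe sets the brightest on average was kept, giving 19938 genes.

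The members, the gene lists, the tests and the rule for names were chosen with earlier results of these data known. The rule named Lratd2, Pvt1 and Myc, the 10 measured genes on either side of Myc, the 10 largest gaps in each direction (lowest array of one set minus highest of the other, without unnamed models, receptors of smell and taste, small RNAs or genes of X and Y), and up to 3 separate members of each list with the largest difference. Members that overlap, the genes with an E-box, Psat1, Cdkn1b, Fosl1 and dim microglia and macrophage genes were named from the lists after their values were seen.

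Labelled groups were compared with limma 3.58.1 in R 4.3.3, in a fit of 8 group means to all arrays, with moderated variances and 2-sided p-values adjusted by Benjamini-Hochberg over 19938 genes. A gene passed at an adjusted p under 0.05. Permutation tests used scipy 1.17.1. The limma comparisons were tested on simulated data.

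Alternatives were the mean of all probe sets of a gene, no genes from the dimmest 25% by mean, arrays centred on their medians, the 2 groups alone, a replicate block, each array left out, replicates 1 and 2 left out together, and Lratd2 thresholds of 9 and 11.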

Additional observations from a re-analysis of the deposited data

Results flagged for a closer look

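Of 87 sets of values examined in groups of 4 to 10 arrays, 5 held an array far from the others by Dixon's criterion. Its rate of about 1 in 20 by chance holds for values not chosen beforehand. Many of the HRAS genes were named for a gap in these same values, so the count is not set against that rate. In the HRAS group Ndufb9, a subunit of respiratory complex I, was 9.0 in replicate 4 against 9.47 to 9.58 in the other 4 arrays. The remaining HRAS cases were all in replicate 3, where Washc5, a subunit of an actin-nucleating complex, was 10.46 against 9.70 to 9.82, Mlxipl, a glucose-sensing factor, 4.98 against 5.40 to 5.55, and the vesicular GABA transporter Slc32a1 5.29 against 5.90 to 5.96. In the MYC+Ezh2 group Pvt1 was 7.07 in replicate 5 against 7.76 to 7.90 in the other 4 arrays.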

How the results depend on the processing

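Of 453 values under alternatives 381 kept their direction and call or size, 21 became weaker (a lost call or a smaller count), 4 stronger, 32 moved and 15 reversed. The 331 separate genes with means 1 log2 unit or more apart became 371 to 700 when 1 HRAS array was left out, the highest without replicate 1. The median of chromosome 15 became 0.049 without the dimmest genes and 0.037 to 0.075 when 1 HRAS array was left out. A threshold of 9 gave the same split, and 11 left replicate 2 alone above it. For HRAS+Bmi1 against HRAS 533 genes passed with the 2 groups alone and 199 to 1801 when 1 array was left out, and for HRAS then MYC against HRAS 983 and 544 to 2667, where a lone array is assumed to vary like the other groups. These ranges were 5985 to 6820 for HRAS against MYC and 4152 to 4779 for HRAS+MYC against HRAS. Lratd2 in HRAS+MYC against HRAS, near 0 with all arrays, became 0.048 with centred arrays, 0.081 with the replicate block, 1.61 without HRAS replicates 1 and 2, and −0.58 to 0.83 when 1 array was left out. Without HRAS replicates 1 and 2, 9930014A18Rik became −0.60 in HRAS against MYC, 0.36 in HRAS+MYC, 0.46 in HRAS+Bmi1 and 0.56 in HRAS then MYC against HRAS, and in HRAS+Bmi1 against HRAS Lratd2 became 0.38 and Pvt1 0.52. With the 2 groups alone Lratd2 and Pvt1 no longer passed in HRAS against MYC (limma adjusted p 0.206 and 0.116) nor Pvt1 in HRAS then MYC against HRAS (limma adjusted p 0.332), which also failed with the mean of its probe sets (limma adjusted p 0.0567). The numbers of the replicates did not pair the arrays, since deviations from the group means of same-numbered arrays correlated at −0.058 to 0.069. With the replicate block 6666, 4855, 881 and 2133 genes passed in the 4 comparisons, in the order HRAS against MYC, then HRAS+MYC, HRAS+Bmi1 and HRAS then MYC against HRAS, and Lratd2 in HRAS against MYC was at 1.61 (limma adjusted p 0.0667). The relation with Lratd2 became −0.11 for Pvt1 in MYC and −0.52 for Myc in HRAS+MYC arrays without the 2 farthest arrays, and −0.69 for the latter with the mean of all probe sets. The cause of these changes was not tested. Dim genes such as A1bg and the gasdermins lie near the floor of the arrays, where a change would be understated.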
